A study of Homo sapiens with 16 samples.

Results

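The genes described here are 85 members of families of transcription factors that pattern the embryo, taken from 8808 genes measured in U2OS cells, a human osteosarcoma line, after knockdown of subunits that meet in the TIP60 acetyltransferase complex. They are all genes of the table whose names place them in the HOX, KLF, SOX, FOX, TBX, GATA, PAX, LHX, MEIS, HES or ETV families or in that of SIX4, and they make up 0.965% of it. By family there were 26 HOX names (11 in HOXA, 6 in HOXB, 6 in HOXC and 3 in HOXD), 18 FOX, 10 KLF, 10 SOX, 4 LHX, 4 MEIS, 3 GATA, 3 PAX, 3 TBX, 2 ETV, 1 HES gene (HES7) and SIX4. Of the 85, 76 are named as transcription factor genes, 6 as noncoding RNAs beside or within such genes (FOXD2-AS1, FOXN3-AS1, FOXP1-IT1, HOXA11-AS, MEIS1-AS3 and SOX2-OT), and 3 as near-copies or pseudogenes (FOXO3B, MEIS3P1 and MEIS3P2).

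HOX genes lie in 4 clusters and give cells their position along the body axis, with MEIS proteins as partners that bind DNA beside them, and Polycomb and trithorax complexes hold their chromatin off or on. KLF proteins are zinc finger factors that bind GC-rich and CACCC elements, SOX proteins bend DNA through an HMG box, and FOX proteins bind through a winged helix. In the skeleton HOX genes shape the identity of each element, and SOX5, SOX6 and several FOX factors act in cartilage and bone cells.

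Cells were transfected with small interfering RNAs (siRNAs) and their poly(A) RNA was sequenced, in groups of 2 libraries each: siMRG15 (against the gene MORF4L1), siMRGX (MORF4L2), siMRGBP (MRGBP), siBRD8 (BRD8) and siTIP60 (KAT5), with an siRNA against luciferase (siLuc) as the control. MRG15 and MRGX are paralogous proteins that also sit in histone deacetylase complexes, and MRGBP and BRD8 belong to the TIP60 complex, whose acetyltransferase is TIP60 itself. All groups were the same line in the same serum-containing medium. The labels name pools of siRNAs for the other 4 targets and a single catalogue number for BRD8. With 1 reagent for each target, on-target and off-target effects cannot be told apart in any knockdown. Whether the paired libraries of a group were separate transfections is not in the labels, and the p-values reflect their spread alone, which could be technical. The 4 samples of chromatin from K562 cells were not analysed here.

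The members held 118153 to 263052 reads per library, out of 20444328 to 42177876 reads in the table, and no member was at 0 in any library. The fewest reads of a member in a library were 7, and 15 members had a mean under 1 CPM (reads of a gene scaled to the size of the library). The targeted genes were at 4.58% (MORF4L1), 7.40% (MORF4L2), 7.64% (MRGBP), 24.2% (BRD8) and 13.7% (KAT5) of their siLuc level. Of 12 osteoblast and mesenchymal markers 6 were in the table (RUNX2, ALPL, SPP1, COL1A1, VIM and TNFRSF11B). Their summed level was 3135 to 3202 CPM in siMRG15, 3051 to 3171 in siMRGX, 3838 to 4122 in siMRGBP, 3787 to 3803 in siBRD8 and 5020 to 5414 in siTIP60 libraries, against 4067 to 4852 in siLuc libraries. Of 8 epithelial markers 5 were in the table. Their summed level was 72.6 to 74.6 CPM in siMRG15, 148 to 160 in siMRGX and 170 to 180 in siMRGBP libraries. It was 132 to 139 in siBRD8 and 203 in both siTIP60 libraries, against 113 to 138 in siLuc libraries. Of 12 erythroid and myeloid markers 2 were in the table, with 1.82 to 8.43 CPM over the 12 libraries. Both ends of that range are siTIP60 libraries, which disagreed here. The part of these marker shifts in the results was not tested, and in bulk RNA fewer cells expressing a gene and less of its RNA per cell cannot be told apart.

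The upstream sequences of 6 members are shown because the results turn on them. KLF2 had the largest change of all members, SIX4 was lower in every knockdown, SOX2 fell furthest among the SOX genes, FOXN3 rose in 2 knockdowns and fell in another, and FOXD2 and its divergent noncoding RNA FOXD2-AS1 both rose in siMRG15. Each line holds the 250 bases before the annotated start, from RefSeq on GRCh38.p14, read on the strand of the gene. Capitals mark matches on either strand. The motifs searched were the TATA box with the letters TATAAA, the CCAAT box spelled as in its name, the cell cycle homology region with the letters TTTGAA, and the cAMP response element, read as TGACGTCA. Also searched were the E-box with the letters CACGTG, the ETS site, read as CCGGAAGT, the GC box with the letters GGGCGG, the CACCC element, read as CCACACCC, and the MEF2 site, read as TAAAAATA.
KLF2, chr19:16324576-16324825, plus strand: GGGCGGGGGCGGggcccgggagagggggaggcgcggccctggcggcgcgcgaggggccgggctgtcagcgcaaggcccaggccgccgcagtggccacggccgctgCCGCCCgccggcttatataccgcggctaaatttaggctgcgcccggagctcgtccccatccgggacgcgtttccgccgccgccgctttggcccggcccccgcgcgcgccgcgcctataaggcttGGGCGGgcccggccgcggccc
SIX4, chr14:60724352-60724601, minus strand: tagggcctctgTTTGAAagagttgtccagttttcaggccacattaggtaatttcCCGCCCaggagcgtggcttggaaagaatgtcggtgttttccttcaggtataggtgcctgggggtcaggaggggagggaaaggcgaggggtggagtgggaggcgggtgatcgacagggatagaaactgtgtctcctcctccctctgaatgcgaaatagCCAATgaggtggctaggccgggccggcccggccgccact
SOX2, chr3:181711675-181711924, plus strand: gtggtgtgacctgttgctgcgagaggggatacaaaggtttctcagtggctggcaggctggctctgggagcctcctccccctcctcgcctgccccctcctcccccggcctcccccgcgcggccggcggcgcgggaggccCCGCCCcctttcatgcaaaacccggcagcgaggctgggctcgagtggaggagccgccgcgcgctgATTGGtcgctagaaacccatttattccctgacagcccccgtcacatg
FOXN3, chr14:89619166-89619415, minus strand: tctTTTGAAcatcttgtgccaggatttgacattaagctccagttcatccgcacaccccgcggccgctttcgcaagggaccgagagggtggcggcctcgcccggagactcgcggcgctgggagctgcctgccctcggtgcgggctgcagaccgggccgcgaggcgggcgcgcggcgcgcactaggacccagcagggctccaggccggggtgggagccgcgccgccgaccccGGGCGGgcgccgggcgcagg
FOXD2, chr1:47437794-47438043, plus strand: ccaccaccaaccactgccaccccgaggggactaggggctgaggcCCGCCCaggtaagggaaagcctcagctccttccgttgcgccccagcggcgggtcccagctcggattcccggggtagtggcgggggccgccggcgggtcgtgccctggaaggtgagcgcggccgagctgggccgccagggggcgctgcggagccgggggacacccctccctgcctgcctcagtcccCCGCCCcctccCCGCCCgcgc
FOXD2-AS1, chr1:47434642-47434891, minus strand: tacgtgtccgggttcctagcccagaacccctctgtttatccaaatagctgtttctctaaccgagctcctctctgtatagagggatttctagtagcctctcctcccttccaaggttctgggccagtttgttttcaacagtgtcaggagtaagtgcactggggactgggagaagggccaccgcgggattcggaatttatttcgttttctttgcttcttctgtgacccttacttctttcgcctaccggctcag

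The KLF2 stretch held 4 GC boxes and was 80% G and C. The SIX4 and FOXN3 stretches each held a cell cycle homology region and a GC box, and SIX4 and SOX2 each had a CCAAT box, 39 and 47 bases before the start. The FOXD2 stretch held 3 GC boxes and the FOXD2-AS1 stretch none of the letters searched, and their starts lie 3403 bases apart on opposite strands. Over the 53 members with a promoter in RefSeq's table, the GC box occurred in 34 (64.2%), against 63.9% of 4968 matched genes of the expression table and 42.3% of all 27305 promoters. The CCAAT box occurred in 23 members (43.4%, against 35.2% and 33.0%), the E-box in 8 (15.1%, against 8.17% and 6.49%), the cell cycle homology region in 7 (13.2%, against 9.48% and 13.6%) and the TATA box in 5 (9.43%, against 7.13% and 11.1%). No member's 250 bases held the letters searched for the cAMP response element (2.72% and 1.77%), the ETS site (3.82% and 3.64%), the CACCC element (2.76% and 2.90%) or the MEF2 site (1.07% and 2.08%). A single spelling of each motif was read, so missing letters do not show that a site, such as one for MEF2, is missing. For genes with several annotated starts the first listed was read.

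Between 62.4% and 71.8% of the members passed the threshold in each knockdown, against 54.2% to 78.8% of all genes, and they went in both directions. Changes are differences of log2(CPM + 1), knockdown minus siLuc, given ± SE with n = 2 libraries per group. A gene passed at an adjusted p under 0.05 in limma, a linear model over all 12 libraries, with p-values adjusted over 8808 genes. The table was limited by its authors to genes they called differentially expressed, so that every member passed in at least 1 knockdown is not a result. In siMRG15, 61 members passed (71.8%, against 69.3% of all genes), 37 higher (43.5%, against 33.5%) and 24 lower (28.2%, against 35.8%). In siMRGX, 56 passed (65.9%, against 68.2%), 23 higher (27.1%, against 28.2%) and 33 lower (38.8%, against 40.0%). With library sizes rescaled by TMM the siMRGX split was 33 higher and 31 lower, and by median-of-ratios 32 and 31. Those rescalings move the median of all genes in siMRGX by 0.12 and 0.11, from -0.105 to 0.014 and 0.004. Both were computed only from the genes of the table, whose median they bring near 0. They are therefore not an independent check of the split.

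In siMRGBP, 59 members passed (69.4%, against 65.0%), 26 higher (30.6%, against 32.1%) and 33 lower (38.8%, against 32.9%). In siBRD8, 53 passed (62.4%, against 54.2%), 24 higher (28.2%, against 28.3%) and 29 lower (34.1%, against 25.9%). In siTIP60, 56 passed (65.9%, against 78.8%), 28 higher (32.9%, against 41.1%) and 28 lower (32.9%, against 37.7%). These shares of all genes are also the background for the counts by family and by list below. Rescaled counts are given there only in part, and some counts shown without them also changed after rescaling. Among the 43 members with a mean of at least 5 CPM the split was 18 higher and 16 lower in siMRG15 and 11 and 17 in siTIP60. The shares of all genes under that filter are not given here, so these splits are not read as a trait of the members. Members that passed and moved at least 2-fold numbered 8 in siMRG15 (9.41%, against 11.9% of all genes), 14 in siMRGX (16.5%, against 12.6%), 7 in siMRGBP (8.24%, against 8.71%), 1 in siBRD8 (1.18%, against 5.03%) and 10 in siTIP60 (11.8%, against 23.4%). The median size of change of the members in siTIP60 was 0.41, against 0.56 over all genes, and in siMRG15 it was 0.44, against 0.41.

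**Figure D1:**
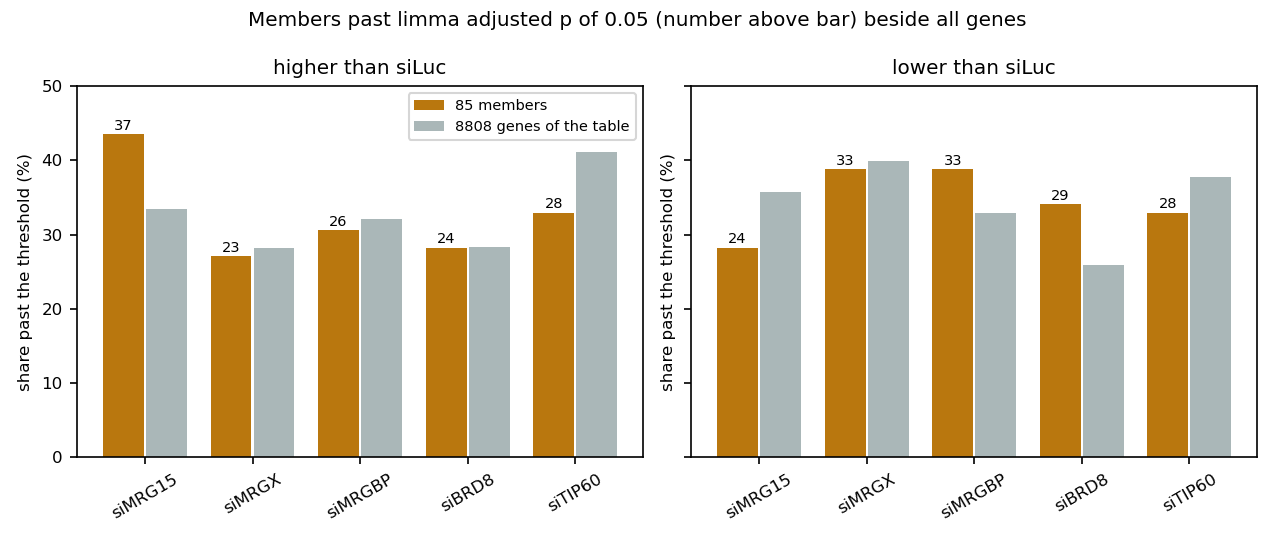
Share of the 85 members (ochre bars, with the number of members above each) and of all 8808 genes (grey bars) past the threshold in each knockdown, for genes higher (left panel) and lower (right panel) than siLuc. The siMRG15 bar for members that were higher stands at 43.5%, against 33.5% of all genes. Members with a mean of at least 5 CPM were 18 higher and 16 lower there, with the share of all genes under that filter not given. The siTIP60 bars for members are below those for all genes in both panels.

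Members of a family often went in different directions. Over the 5 knockdowns 41 members passed in both directions, 22 only higher and 22 only lower. The shares of all genes for these and the next counts are not given here. They are therefore not read as a trait of the members. Of the 11 that passed in every knockdown, 8 were lower each time (FOXM1, FOXS1, HOXA2, HOXB8, LHX6, SIX4, SOX18 and SOX2-OT), LHX5 was higher each time, and KLF7 and HOXD10 changed direction. The HOXD10 rise in siMRG15 (0.25) did not pass without siMRG15 replicate 2 (0.17) or siLuc replicate 2 (0.20). The 5 comparisons share the 2 siLuc libraries. On the recovered reads of all genes these agreed least of any group. Their chi-square per degree of freedom was 52.6, against 4.72 (siBRD8) to 27.8 (siTIP60) in the knockdowns. The fit shares its spread over all groups, so the SE may understate the spread of siLuc.

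**Figure D2:**
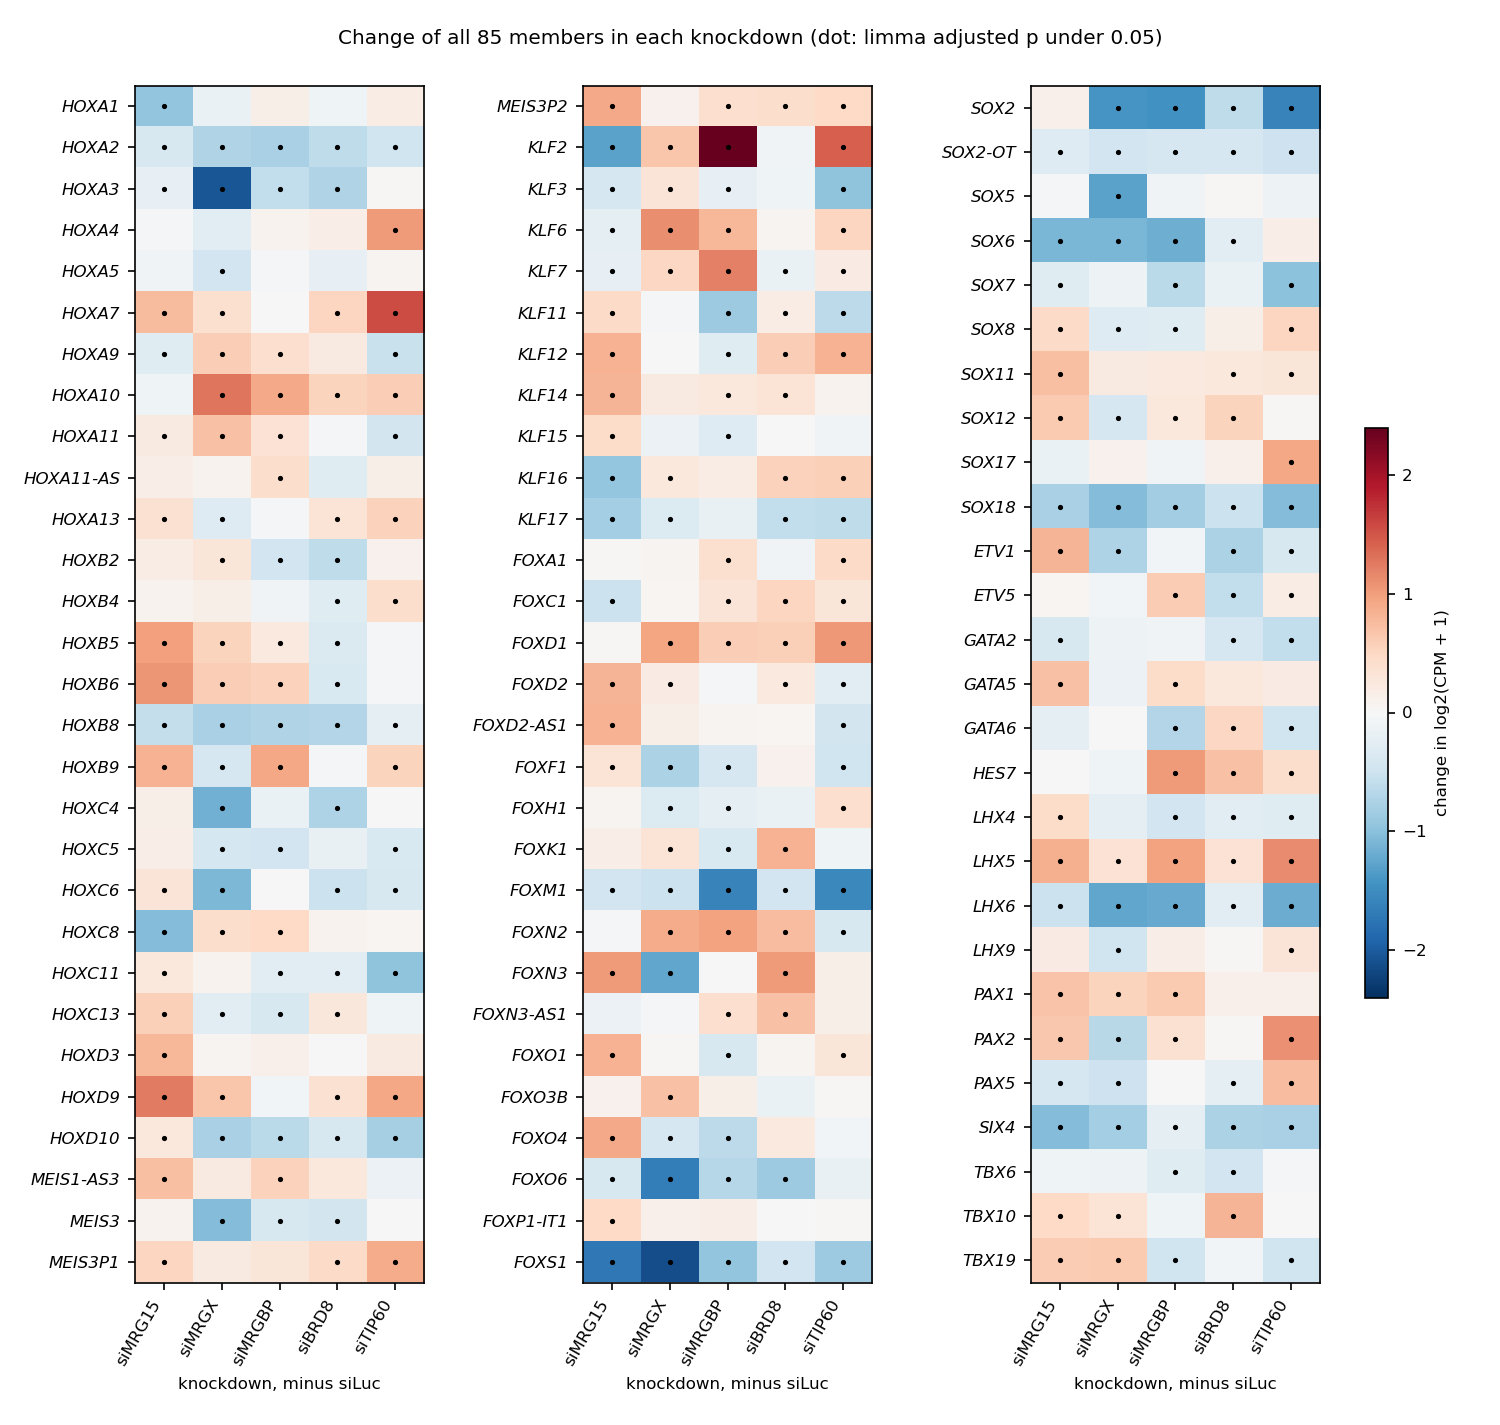
Change of each of the 85 members in log2(CPM + 1), knockdown minus siLuc, as colour (red higher, blue lower), with the knockdowns in columns and the members in rows by family. A dot marks an adjusted p under 0.05. KLF2 runs between -1.28 in siMRG15 and 2.38 in siMRGBP, and FOXM1, FOXS1 and SIX4 are blue with a dot in every column.

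KLF2 had the widest range of any member. This factor keeps endothelial cells and T cells quiescent and is switched on by the kinase ERK5 through MEF2 proteins. It was at 4.48 and 4.898 CPM in siMRG15, 20.4 and 21.7 in siMRGX, 78.96 and 64.3 in siMRGBP, 12.1 and 11.9 in siBRD8 and 39.3 and 34.2 in siTIP60 libraries, against 12.99 and 12.7 in siLuc libraries. Both siMRG15 and both siBRD8 libraries were below the siLuc libraries, siBRD8 only slightly, and the other knockdown libraries were above them. KLF2 fell by 1.28 ± 0.10 in siMRG15 (adjusted p = 1.1e-07) and rose by 0.67 ± 0.10 in siMRGX (adjusted p = 4.0e-05), 2.38 ± 0.10 in siMRGBP (adjusted p = 1.0e-09) and 1.44 ± 0.10 in siTIP60 (adjusted p = 1.9e-08). In siBRD8 its difference of -0.09 ± 0.10 did not pass (adjusted p = 0.45). The mean level in siMRGBP was 5.57 times that in siLuc.

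All 10 comparisons between knockdowns passed for KLF2. It was lower in siMRG15 than in siMRGBP by a log2 difference of -3.67 ± 0.10 (adjusted p = 1.7e-11), than in siTIP60 by -2.73, than in siMRGX by -1.95 and than in siBRD8 by -1.19, each with an SE of 0.10. The order of its levels, high to low, was siMRGBP, siTIP60, siMRGX, siLuc with siBRD8, and siMRG15, where siLuc and siBRD8 did not differ beyond their spread.

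KLF6, an immediate-early factor, and KLF7, its close relative, were higher in siMRGX, siMRGBP and siTIP60, as KLF2 was. Both also passed as lower in siMRG15 in the full fit, as KLF2 did. KLF6 was at 81.99 and 82.1 CPM in siMRG15, 211 and 201 in siMRGX, 164 and 167 in siMRGBP, 101 and 96.8 in siBRD8 and 135 and 137 in siTIP60 libraries, against 92.98 and 96.9 in siLuc libraries. It rose most in siMRGX, by 1.11 ± 0.06 (adjusted p = 4.7e-09), where KLF2 rose least of the 3. KLF7 was at 45.1 and 43.99 CPM in siMRG15, 73.5 and 72.8 in siMRGX, 122 and 119 in siMRGBP, 44.99 and 47.2 in siBRD8 and 57.9 and 60.4 in siTIP60 libraries, against 50.2 and 52.4 in siLuc libraries, and rose by 1.22 ± 0.06 in siMRGBP (adjusted p = 3.5e-09). Its fall in siBRD8 (-0.15) no longer passed without siBRD8 replicate 1 (-0.12) or siLuc replicate 2 (-0.12).

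Other KLF genes followed these in part at most. KLF16, a repressor, was at 17.5 and 17.5 CPM in siMRG15, 39.2 and 43.2 in siMRGX, 37.6 and 39.7 in siMRGBP, 50.7 and 50.6 in siBRD8 and 52.1 and 50.1 in siTIP60 libraries, against 39.2 and 29.9 in siLuc libraries. The 2 siLuc libraries lie apart, and the rise in siMRGX (0.26) went to 0.07 without siLuc replicate 2, and those in siBRD8 (0.55) and siTIP60 (0.56) to 0.36 and 0.37, which still passed. In siMRG15 it fell by 0.93 ± 0.10 (adjusted p = 2.9e-06), and both libraries were below siLuc. KLF11, KLF12, KLF14 and KLF15 rose in siMRG15 by 0.47, 0.83, 0.82 and 0.44. KLF11, which acts downstream of TGF-beta, fell by 0.88 in siMRGBP and by 0.63 in siTIP60, and KLF3, a repressor that recruits CtBP, fell by 0.96 in siTIP60. Of the 10 KLF genes, 4 were higher and 6 lower in siMRG15, 5 and 1 in siMRGX (7 and 1 after either rescaling), 4 and 4 in siMRGBP (3 and 4 with TMM), 4 and 2 in siBRD8 (4 and 1 with TMM), and 5 and 3 in siTIP60.

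**Figure D3:**
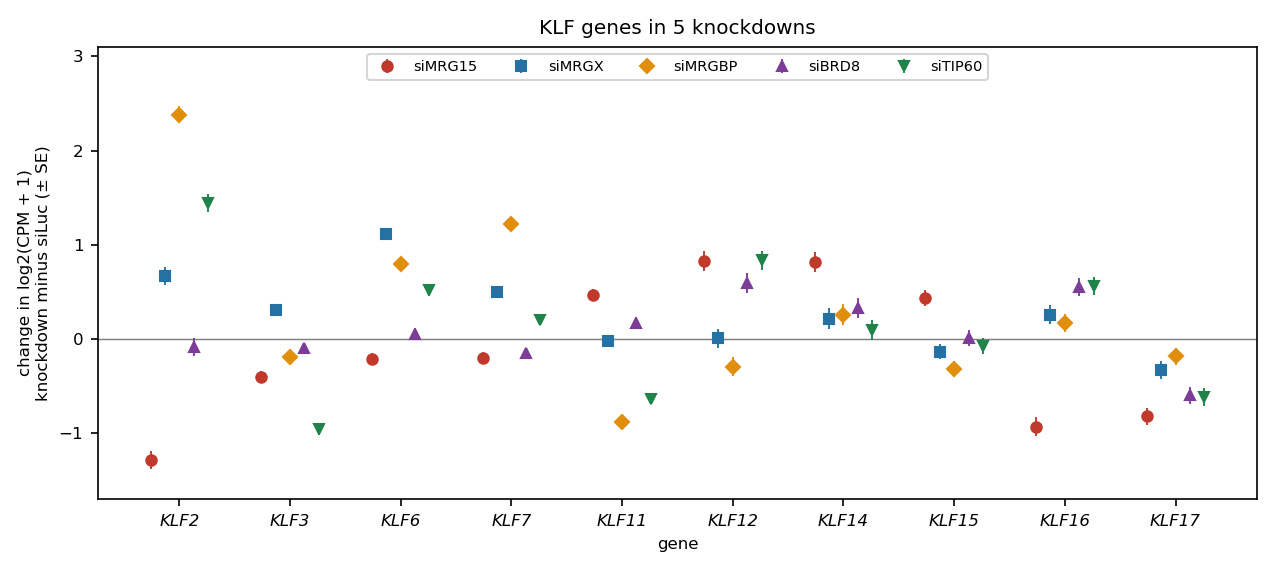
Change in log2(CPM + 1), knockdown minus siLuc, of the 10 KLF genes, with a symbol and colour for each of the 5 knockdowns and bars of ± SE. KLF2 spans from -1.28 (siMRG15) to 2.38 (siMRGBP), while KLF16 is lowest in siMRG15 (-0.93) and KLF11 lowest in siMRGBP (-0.88).

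Of 26 listed KLF relatives and genes of the ERK5-MEF2 route, 14 were in the table. Of these 6 were higher and 6 lower in siMRG15, 5 and 5 in siMRGX (5 and 3 after either rescaling), 11 and 1 in siMRGBP, 7 and 2 in siBRD8 and 10 and 1 in siTIP60 (10 and 2 with TMM). The list's median change was 0.49 in siMRGBP and 0.93 in siTIP60, against -0.02 and 0.05 over all genes. Several of its members are known KLF2 targets in endothelial cells, and the list was chosen with KLF2's changes known. THBD, which encodes thrombomodulin, rose by 0.93 in siMRGBP and 1.26 in siTIP60, and NOS3, the endothelial nitric oxide synthase, by 0.66 and 1.42. In siMRG15 NOS3 also rose, by 1.06, where KLF2 fell. EDN1, the gene of endothelin, which KLF2 represses in endothelial cells, fell in siMRG15 by 1.56 and rose in siMRGBP by 1.24. THBD and NOS3 were not among the genes of the list named for the smallest adjusted p. Whether KLF2 caused any of these changes was not tested. MEF2C rose by 1.84 in siTIP60 (6.65 CPM, against 1.13 in siLuc), MAP3K3, an activator of the ERK5 cascade, rose there by 1.06, and MAP3K2, its relative, fell by 1.41 in siMRG15.

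Of the FOX names, FOXM1 and FOXS1 fell in every knockdown. FOXM1, which drives genes of G2 and mitosis, was at 475 and 511 CPM in siMRG15, 473 and 480.2 in siMRGX, 224 and 219.9 in siMRGBP, 500.3 and 492 in siBRD8 and 228 and 236 in siTIP60 libraries, against 658 and 701 in siLuc libraries. Every knockdown library was below both siLuc libraries. It fell by 1.61 ± 0.06 in siMRGBP (adjusted p = 9.2e-10) and by 1.55 ± 0.06 in siTIP60 (adjusted p = 2.9e-10), and by 0.45 to 0.51 in the other 3. The direct comparison of siMRGBP with siTIP60 gave -0.06 (adjusted p = 0.37), and siMRGBP was lower than siBRD8 by a difference of -1.16 (adjusted p = 1.4e-08).

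FOXS1, a forkhead factor of pericytes and sensory neurons in the mouse, was at 6.22 and 5.298 CPM in siMRG15, 3.73 and 4.34 in siMRGX, 9.57 and 11.3 in siMRGBP, 14.7 and 15.6 in siBRD8 and 11.8 and 10.4 in siTIP60 libraries, against 21.02 and 21.2 in siLuc libraries. It had the largest fall of any member, by 2.14 ± 0.10 in siMRGX (adjusted p = 3.0e-09), followed by 1.71 ± 0.10 in siMRG15 (adjusted p = 1.6e-08). The lowest levels were in siMRGX and siMRG15 for FOXS1, and in siMRGBP and siTIP60 for FOXM1.

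FOXN3, a repressor linked to the DNA damage checkpoint, was at 184 and 187 CPM in siMRG15, 37.95 and 37.8 in siMRGX, 81.7 and 101 in siMRGBP, 186 and 186 in siBRD8 and 99.7 and 102 in siTIP60 libraries, against 89.3 and 92.8 in siLuc libraries. It rose by 1.02 ± 0.08 in siMRG15 (adjusted p = 2.2e-07) and 1.02 ± 0.08 in siBRD8 (adjusted p = 5.1e-07), and fell by 1.24 ± 0.08 in siMRGX (adjusted p = 3.8e-08). Set directly against each other, the 2 MRG paralogs differed by 2.26 ± 0.08 (siMRG15 minus siMRGX, adjusted p = 1.6e-10), the largest difference in that direction of any member between them. In siMRGBP the 2 libraries lay on either side of siLuc and the change of 0.00 did not pass. The antisense RNA FOXN3-AS1 rose in siMRGBP and siBRD8 by 0.40 and 0.70 and in siMRGX differed by -0.03, which did not pass. Whether counting used strand is not given in the sources used here, so reads of overlapping sense and antisense genes cannot be told apart.

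FOXN2, a paralog of FOXN3, was at 64.9 and 64.3 CPM in siMRG15, 127 and 119 in siMRGX, 135 and 124 in siMRGBP, 109.9 and 112 in siBRD8 and 49.4 and 51.7 in siTIP60 libraries, against 59.8 and 72.5 in siLuc libraries. It rose in siMRGX by 0.89 (adjusted p = 8.0e-07), where FOXN3 fell, and in siMRGBP by 0.97 and siBRD8 by 0.74, and fell in siTIP60 by 0.38 (0.24 without siLuc replicate 2). FOXK1, which represses autophagy genes, was at 254 and 251 CPM in siMRG15, 273 and 295 in siMRGX, 165 and 187 in siMRGBP, 407 and 408 in siBRD8 and 208 and 213 in siTIP60 libraries, against 243 and 212 in siLuc libraries. It rose by 0.84 ± 0.08 in siBRD8 (adjusted p = 2.0e-06) and by 0.32 in siMRGX, and fell by 0.36 in siMRGBP.

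FOXO factors, which AKT keeps out of the nucleus, changed in different directions. FOXO4 was at 16.2 and 16.2 CPM in siMRG15, 6.37 and 5.57 in siMRGX, 4.45 and 5.42 in siMRGBP, 9.42 and 10.01 in siBRD8 and 8.096 and 7.44 in siTIP60 libraries, against 7.97 and 8.33 in siLuc libraries. It rose by 0.91 ± 0.09 in siMRG15 (adjusted p = 2.1e-06) and fell in siMRGX by 0.39 and in siMRGBP by 0.63, and FOXO1 rose by 0.84 in siMRG15 and fell by 0.39 in siMRGBP (0.25 without siMRGBP replicate 1). FOXO6 was at 14.7 and 14.4 CPM in siMRG15, 5.15 and 5.68 in siMRGX, 10.4 and 13.1 in siMRGBP, 10.03 and 10.2 in siBRD8 and 17.6 and 16.2 in siTIP60 libraries, against 23.3 and 16.1 in siLuc libraries. It fell by 1.67 ± 0.14 in siMRGX (adjusted p = 3.2e-07) and by 0.87 ± 0.14 in siBRD8 (adjusted p = 1.8e-04), the largest fall of a member there. Its fall in siMRG15 (-0.39) went to -0.14 without siLuc replicate 1 and did not pass, nor did it without either siMRG15 library (-0.40 and -0.38), and that in siMRGBP (-0.68) went to -0.42. FOXO3B shares sequence with FOXO3, so its rise in siMRGX (0.70) is uncertain. FOXD1, a factor of the kidney stroma, was at 2.45 and 2.14 CPM in siMRG15, 5.24 and 5.17 in siMRGX, 3.63 and 4.04 in siMRGBP, 3.92 and 3.58 in siBRD8 and 5.45 and 5.84 in siTIP60 libraries, against 3.11 and 1.51 in siLuc libraries. It rose by 0.95 in siMRGX and 1.05 in siTIP60. Without siLuc replicate 2, the lower of the pair, those rises were 0.59 and 0.69, and those in siMRGBP (0.59) and siBRD8 (0.56) went to 0.23 and 0.21 and did not pass. The siBRD8 rise also did not pass without siBRD8 replicate 1 (0.51).

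FOXD2 and FOXD2-AS1, named after their values were seen, start from the divergent pair of sequences shown above. FOXD2 was at 28.5 and 29.97 CPM in siMRG15, 18.6 and 18.9 in siMRGX, 15.6 and 16.04 in siMRGBP, 18.8 and 19.6 in siBRD8 and 13.1 and 13.3 in siTIP60 libraries, against 16.9 and 15.5 in siLuc libraries. FOXD2-AS1 was at 45.6 and 46.5 CPM in siMRG15, 28.98 and 26.95 in siMRGX, 25.7 and 27.2 in siMRGBP, 26.1 and 25.95 in siBRD8 and 17.9 and 19.00 in siTIP60 libraries, against 25.5 and 25.1 in siLuc libraries. The sense gene and the antisense RNA rose in siMRG15 by 0.81 and 0.84 and fell in siTIP60 by 0.27 and 0.44. FOXD2 also rose in siMRGX by 0.20 and in siBRD8 by 0.23, where the FOXD2-AS1 differences of 0.14 and 0.04 did not pass (0.30 and 0.32 in siMRGX after rescaling by median-of-ratios and TMM, which passed). That FOXD2 rise in siMRGX did not pass without either siMRGX library (0.21 and 0.19) or siLuc replicate 2 (0.14), nor that in siBRD8 without siBRD8 replicate 2 (0.20) or siLuc replicate 2 (0.17). Of the 18 FOX names, 7 were higher and 4 lower in siMRG15, 5 and 7 in siMRGX (7 and 7 with TMM), 5 and 8 in siMRGBP, 7 and 3 in siBRD8 and 5 and 6 in siTIP60.

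Of 22 listed FOXO target genes 13 were in the table, with 7 higher and 4 lower in siMRG15, 5 and 6 in siMRGX (7 and 5 with TMM), 4 and 6 in siMRGBP, 4 and 4 in siBRD8 and 7 and 4 in siTIP60. FBXO32, the gene of the ubiquitin ligase atrogin, rose by 2.74 ± 0.11 in siTIP60 (85.3 CPM, against 12.1 in siLuc). TXNIP, which binds thioredoxin, rose by 2.35 ± 0.11 in siMRG15 (71.5 CPM, against 13.2 in siLuc), and the insulin receptor gene INSR by 1.66 ± 0.09 in siMRG15 (20.2 CPM, against 5.70 in siLuc). KLF6 is on this list as well as a member.

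**Figure D4:**
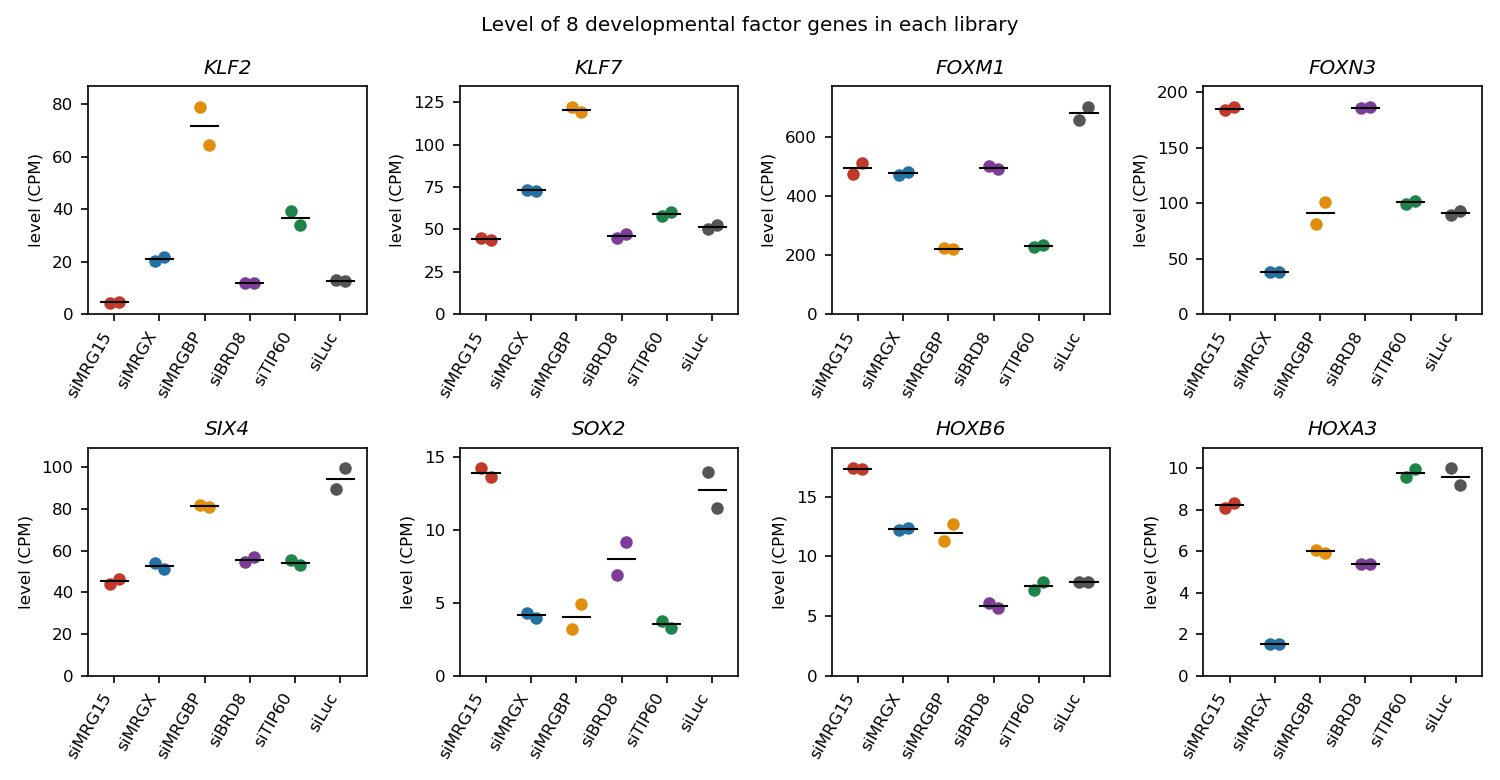
Level in CPM of 8 members in each of the 12 libraries, with the 5 knockdowns to the left of siLuc, a point per library and a line at the mean of the 2. KLF2 stands at 79.0 and 64.3 CPM in siMRGBP, FOXM1 is lower than siLuc in all knockdowns, FOXN3 is above siLuc in siMRG15 and siBRD8 and below it in siMRGX, and HOXA3 is at 1.54 and 1.55 CPM in siMRGX.

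Among the SOX names SOX2 fell furthest. SOX2, a pluripotency and neural factor, was at 14.2 and 13.6 CPM in siMRG15, 4.32 and 3.97 in siMRGX, 3.23 and 4.904 in siMRGBP, 6.902 and 9.17 in siBRD8 and 3.77 and 3.31 in siTIP60 libraries, against 13.97 and 11.5 in siLuc libraries. It fell by 1.41 ± 0.15 in siMRGX, 1.45 ± 0.15 in siMRGBP and 1.59 ± 0.15 in siTIP60 (adjusted p = 3.6e-06, 3.6e-06 and 6.8e-07), and its difference of 0.12 in siMRG15 did not pass. Its fall in siBRD8 (-0.61) no longer passed without siBRD8 replicate 1 (-0.43). In the direct comparisons the differences among siMRGX, siMRGBP and siTIP60 were 0.04 to 0.18, each with an SE of 0.15, and did not pass, while siMRG15 was higher than siTIP60 by 1.72, than siMRGBP by 1.58 and than siMRGX by 1.54. SOX2-OT, the noncoding RNA in which SOX2 lies, was at 0.579 and 0.611 CPM in siMRG15, 0.416 and 0.434 in siMRGX, 0.472 and 0.515 in siMRGBP, 0.399 and 0.559 in siBRD8 and 0.365 and 0.422 in siTIP60 libraries, against 0.742 and 1.21 in siLuc libraries, and passed as lower in all 5, by 0.30 to 0.50. Its 10 direct differences between knockdowns were at most 0.19 and did not pass. Without siLuc replicate 2, the higher of the pair, its falls in siMRG15 (-0.13), siMRGBP (-0.22) and siBRD8 (-0.24) did not pass, nor did that in siMRG15 without either siMRG15 library (-0.29 and -0.31) or that in siBRD8 without siBRD8 replicate 1 (-0.33).

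SOX6, which with SOX5 supports SOX9 in cartilage, was at 13.5 and 10.7 CPM in siMRG15, 12.1 and 11.9 in siMRGX, 10.6 and 11.99 in siMRGBP, 20.4 and 23.8 in siBRD8 and 30.5 and 29.4 in siTIP60 libraries, against 25.05 and 28.5 in siLuc libraries. It fell by 1.09 ± 0.11 in siMRG15, 1.09 ± 0.11 in siMRGX and 1.17 ± 0.11 in siMRGBP, and the direct comparisons among these 3 gave differences of at most 0.08, which did not pass. In siTIP60 its difference of 0.16 did not pass, and siMRGBP was lower than siTIP60 by -1.33. The fall in siBRD8 (-0.27) did not pass without siBRD8 replicate 1 (-0.16) or siLuc replicate 2 (-0.18). SOX5 fell in siMRGX by 1.29.

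SOX18, a factor of blood and lymph vessel endothelium, was at 1.74 and 1.71 CPM in siMRG15, 1.18 and 1.31 in siMRGX, 1.61 and 1.57 in siMRGBP, 2.28 and 2.25 in siBRD8 and 1.34 and 1.17 in siTIP60 libraries, against 4.76 and 2.74 in siLuc libraries, and passed as lower in all 5 knockdowns, by 0.51 to 1.05. Without siLuc replicate 1, the higher of the pair, the falls were 0.46 in siMRG15, 0.53 in siMRGBP and, no longer passing, 0.20 in siBRD8, which also did not pass without either siBRD8 library (-0.51 and -0.50). SOX17, the endoderm and endothelial factor, rose in siTIP60 by 0.92, and SOX7 of the same subgroup fell there by 0.98. Of the 10 SOX names, SOX2-OT included, 3 were higher and 4 lower in siMRG15, 0 and 7 in siMRGX (2 and 7 after either rescaling), 1 and 6 in siMRGBP, 2 and 4 in siBRD8 (2 and 3 with TMM) and 3 and 4 in siTIP60. With median-of-ratios the SOX counts were 2 and 6 in siMRGBP and 1 and 4 in siBRD8. At an unadjusted p under 0.05 the number of SOX names higher in siMRGX was 0, and on the recovered reads edgeR called 0 and DESeq2 2. Of the 9 without SOX2-OT, 3 were higher and 3 lower in both siMRG15 and siTIP60. Of all genes 40.0% were lower in siMRGX and 32.9% in siMRGBP.

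HOX genes of 1 cluster mostly changed in both directions, with exceptions in HOXB, HOXC and HOXD. Of the 26 names, 12 were higher and 6 lower in siMRG15, 9 and 11 in siMRGX (11 and 9 after either rescaling), 8 and 8 in siMRGBP, 5 and 11 in siBRD8 and 7 and 8 in siTIP60. With TMM the siMRG15 split of the 26 names was 11 and 6. In siBRD8 HOXB stood at 0 higher and 5 lower of 6 in limma (0 higher at an unadjusted p under 0.05, 0 in edgeR and 0 in DESeq2 on the recovered reads). Of all genes 28.3% were higher and 25.9% lower in siBRD8. All 3 HOXD genes were higher in siMRG15, by 0.25 (HOXD10), 0.79 (HOXD3) and 1.24 (HOXD9), also after either rescaling. The HOXD10 rise depended on single libraries, as given above. HOXD3 was low and uneven, at 0.935 and 1.58 CPM in siMRG15 libraries, against 0.417 and 0.175 in siLuc libraries. The 3 of 6 HOXC genes that passed in siTIP60 and the 1 of 3 HOXD genes that passed in siMRGBP were lower. HOXC had 1 higher and 4 lower of 6 in siMRGX, 2 and 3 after either rescaling.

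At the low-numbered end of HOXA, HOXA3, which patterns the pharyngeal arches, was at 8.09 and 8.33 CPM in siMRG15, 1.54 and 1.55 in siMRGX, 6.08 and 5.93 in siMRGBP, 5.38 and 5.36 in siBRD8 and 9.55 and 9.94 in siTIP60 libraries, against 9.98 and 9.16 in siLuc libraries. Its fall of 2.05 ± 0.07 in siMRGX (adjusted p = 4.6e-10) was the largest change of any HOX gene, and siMRGX was lower than siBRD8, siMRGBP and siTIP60 in the direct comparisons, with differences of -1.32, -1.46 and -2.08. The fall in siMRG15 (-0.20) did not pass without either siMRG15 library (-0.18 and -0.22) or without siLuc replicate 1 (-0.14). HOXA2 was at 0.757 and 0.611 CPM in siMRG15, 0.359 and 0.308 in siMRGX, 0.192 and 0.393 in siMRGBP, 0.353 and 0.549 in siBRD8 and 0.609 and 0.5796 in siTIP60 libraries, against 1.11 and 1.32 in siLuc libraries, and passed as lower in all 5 knockdowns, by 0.39 to 0.78.

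Further along the cluster, HOXA7 and HOXA10 rose in 1 or more knockdowns. HOXA7 was at 2.702 and 2.71 CPM in siMRG15, 1.78 and 1.96 in siMRGX, 1.03 and 1.38 in siMRGBP, 2.26 and 1.97 in siBRD8 and 5.35 and 5.69 in siTIP60 libraries, against 1.41 and 0.992 in siLuc libraries, and rose by 1.57 ± 0.11 in siTIP60 (adjusted p = 3.2e-08), the largest rise of a HOX gene. Its rise in siMRGX (0.39) did not pass without siMRGX replicate 2 (0.34) or siLuc replicate 2 (0.25). HOXA10, which acts in limb, uterus and bone, was at 3.93 and 4.002 CPM in siMRG15, 12.4 and 11.7 in siMRGX, 8.42 and 9.67 in siMRGBP, 6.69 and 6.75 in siBRD8 and 6.900 and 7.07 in siTIP60 libraries, against 4.83 and 3.84 in siLuc libraries. It rose by 1.29 ± 0.10 in siMRGX (adjusted p = 1.1e-07), where HOXA3 fell. HOXA11-AS, the antisense RNA whose start lies 176 bases from that of HOXA11, rose in siMRGBP by 0.43 (0.23 and no longer passing without siMRGBP replicate 1), and HOXA11 rose there by 0.35.

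HOXB5 and HOXB6, neighbours in HOXB, had their highest levels in siMRG15. HOXB6 was at 17.4 and 17.3 CPM in siMRG15, 12.2 and 12.3 in siMRGX, 11.3 and 12.7 in siMRGBP, 6.07 and 5.66 in siBRD8 and 7.17 and 7.88 in siTIP60 libraries, against 7.86 and 7.83 in siLuc libraries. HOXB5 was at 9.12 and 8.31 CPM in siMRG15, 6.502 and 5.71 in siMRGX, 4.61 and 4.999 in siMRGBP, 2.99 and 2.72 in siBRD8 and 3.87 and 3.71 in siTIP60 libraries, against 4.07 and 3.78 in siLuc libraries. Both rose most in siMRG15, by 1.05 and 0.98, and fell in siBRD8, by 0.37 and 0.35, and siMRG15 exceeded siBRD8 by 1.42 (HOXB6) and 1.33 (HOXB5) in the direct test. The HOXB5 calls in siMRGBP (0.24) and siBRD8 were lost without siMRGBP replicate 2 (0.19) or siLuc replicate 2 (0.19), and without siBRD8 replicate 2 (-0.30). HOXB8 was at 1.57 and 1.295 CPM in siMRG15, 1.06 and 1.16 in siMRGX, 1.14 and 1.22 in siMRGBP, 1.196 and 1.24 in siBRD8 and 2.171 and 2.04 in siTIP60 libraries, against 2.73 and 2.497 in siLuc libraries. It fell in all 5, by 0.22 to 0.78, and its fall in siTIP60 (-0.22) did not pass without either siTIP60 library (-0.25 and -0.19), without siLuc replicate 1 (-0.17) or without either siBRD8 library, which left it at -0.22.

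In HOXC, HOXC8 was at 8.82 and 8.11 CPM in siMRG15, 24.8 and 24.9 in siMRGX, 28.1 and 24.4 in siMRGBP, 20.3 and 19.00 in siBRD8 and 18.2 and 20.1 in siTIP60 libraries, against 17.6 and 19.3 in siLuc libraries. It fell by 1.04 ± 0.08 in siMRG15 (adjusted p = 2.5e-07) and rose in siMRGX by 0.41 and siMRGBP by 0.49. HOXC4 was at 10.2 and 9.86 CPM in siMRG15, 3.804 and 3.203 in siMRGX, 8.104 and 7.79 in siMRGBP, 4.93 and 5.14 in siBRD8 and 9.04 and 8.92 in siTIP60 libraries, against 8.92 and 9.14 in siLuc libraries. It fell by 1.16 ± 0.08 in siMRGX and by 0.73 ± 0.08 in siBRD8, and its other 3 differences did not pass. In HOXD, HOXD9 was at 6.61 and 6.41 CPM in siMRG15, 4.11 and 4.03 in siMRGX, 1.82 and 2.26 in siMRGBP, 3.03 and 3.19 in siBRD8 and 5.19 and 4.98 in siTIP60 libraries, against 2.38 and 1.995 in siLuc libraries. It rose by 1.24 ± 0.09 in siMRG15 (adjusted p = 1.3e-07), and its neighbour HOXD10 rose there by 0.25 and fell in the other 4 knockdowns by 0.39 to 0.79.

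**Figure D5:**
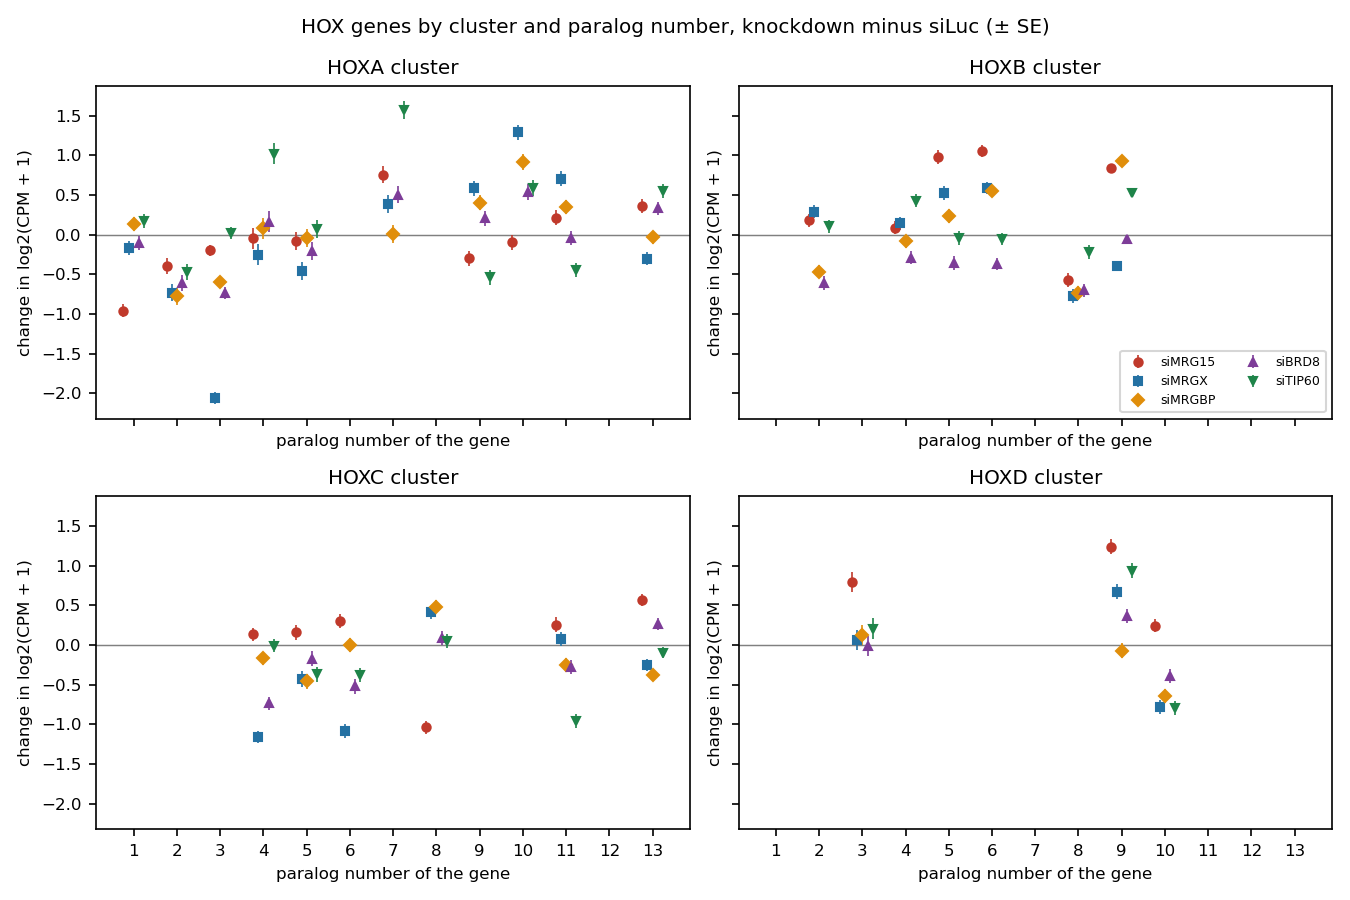
Change in log2(CPM + 1), knockdown minus siLuc, of the 25 HOX protein genes in the table, by cluster (panels) and by the number in the gene's name (horizontal axis), with a symbol and colour for each knockdown and bars of ± SE. HOXA3 in siMRGX lies at -2.05 and HOXA7 in siTIP60 at 1.57, and the siBRD8 symbols of HOXB2, HOXB4, HOXB5, HOXB6 and HOXB8 all lie below 0.

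MEIS3, a HOX partner, was at 49.9 and 48.7 CPM in siMRG15, 21.6 and 22.5 in siMRGX, 33.7 and 36.7 in siMRGBP, 33.00 and 34.6 in siBRD8 and 47.3 and 45.9 in siTIP60 libraries, against 50.5 and 42.4 in siLuc libraries. It fell by 1.04 ± 0.08 in siMRGX, 0.39 in siMRGBP and 0.44 in siBRD8, and its near-copies MEIS3P1 and MEIS3P2, whose reads the counting may have split with MEIS3, rose by 0.52 and 0.91 in siMRG15. MEIS3P1 also rose in siTIP60, by 0.90. Its rise in siMRG15 did not pass without siMRG15 replicate 2 (0.46) or siLuc replicate 2 (0.24). Of 33 listed HOX partners and Polycomb or trithorax regulators, 11 were in the table, with 7 higher and 3 lower in siMRG15, 6 and 2 in siMRGX (8 and 2 after either rescaling), 2 and 7 in siMRGBP, 4 and 2 in siBRD8 and 3 and 7 in siTIP60. The Polycomb genes CBX6 and EZH1 rose in siMRGX by 1.52 ± 0.08 and 1.19 ± 0.07. CBX2 fell in siTIP60 by 1.22 ± 0.07, as did TGIF1, a homeodomain repressor, by 1.09 ± 0.07, and EZH2, the Polycomb methyltransferase, by 0.91.

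SIX4, which works with EYA cofactors in muscle and kidney progenitors, was at 44.3 and 46.4 CPM in siMRG15, 54.3 and 51.3 in siMRGX, 82.02 and 80.9 in siMRGBP, 54.4 and 56.98 in siBRD8 and 55.6 and 53.1 in siTIP60 libraries, against 89.4 and 99.5 in siLuc libraries. All 10 knockdown libraries were below both siLuc libraries. It fell by 1.04 ± 0.07 in siMRG15 (adjusted p = 2.8e-08), 0.82 in siMRGX, 0.75 in siBRD8 and 0.78 in siTIP60, and by 0.21 in siMRGBP, which did not pass without siLuc replicate 2 (-0.13). In the direct tests siMRGBP exceeded siBRD8 by 0.54 and siTIP60 by 0.58, and siMRG15 and siMRGX were lower than siMRGBP, with differences of -0.83 and -0.62.

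LHX6, a homeodomain factor of forebrain interneurons and the jaw, was at 2.004 and 2.25 CPM in siMRG15, 0.9904 and 0.755 in siMRGX, 0.873 and 1.003 in siMRGBP, 2.71 and 2.65 in siBRD8 and 0.941 and 0.9801 in siTIP60 libraries, against 3.51 and 3.396 in siLuc libraries. It fell by 1.25, 1.202 and 1.18 in siMRGX, siMRGBP and siTIP60, each with an SE of 0.09, and the direct differences among these 3, -0.02 to -0.07, did not pass. Its fall in siBRD8 (-0.28) did not pass without either siBRD8 library (-0.29 and -0.26) or siLuc replicate 1 (-0.26). LHX5, another forebrain factor, was the member higher in every knockdown, at 2.52 and 1.69 CPM in siMRG15, 1.18 and 1.13 in siMRGX, 2.498 and 2.19 in siMRGBP, 1.196 and 1.14 in siBRD8 and 2.71 and 2.77 in siTIP60 libraries, against 0.703 and 0.7001 in siLuc libraries. Its rises in siMRGX (0.34) and siBRD8 (0.35) did not pass without either library of the knockdown (0.33 and 0.36 in siMRGX, 0.33 and 0.37 in siBRD8), nor in siBRD8 without siLuc replicate 2 (0.35).

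PAX2, of kidney and eye, was at 2.79 and 3.01 CPM in siMRG15, 0.574 and 0.601 in siMRGX, 1.94 and 2.52 in siMRGBP, 1.603 and 1.53 in siBRD8 and 4.45 and 4.32 in siTIP60 libraries, against 1.59 and 1.42 in siLuc libraries. It rose by 1.105 ± 0.10 in siTIP60 (adjusted p = 2.7e-07) and fell by 0.66 ± 0.10 in siMRGX (adjusted p = 5.2e-05), and its rise in siMRGBP (0.36) did not pass without siMRGBP replicate 2 (0.23). GATA6, an endoderm and heart factor, was at 4.96 and 4.71 CPM in siMRG15, 5.87 and 5.72 in siMRGX, 3.23 and 3.13 in siMRGBP, 9.22 and 8.204 in siBRD8 and 3.43 and 4.37 in siTIP60 libraries, against 5.62 and 6.07 in siLuc libraries. It fell by 0.71 in siMRGBP and 0.49 in siTIP60 and rose by 0.50 in siBRD8. TBX10 was at 2.06 and 1.82 CPM in siMRG15, 1.61 and 1.73 in siMRGX, 0.734 and 1.27 in siMRGBP, 2.67 and 2.77 in siBRD8 and 1.14 and 1.05 in siTIP60 libraries, against 1.33 and 0.933 in siLuc libraries. It rose by 0.81 ± 0.13 in siBRD8 and by 0.47 in siMRG15, and its rise in siMRGX (0.33) did not pass without either siMRGX library (0.37 and 0.30) or siLuc replicate 2 (0.20).

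Of 23 listed partners of SIX4, PAX, LHX and GATA factors 9 were in the table, with 6 higher and 0 lower in siMRG15, 2 and 3 in siMRGX (4 and 3 after either rescaling), 2 and 4 in siMRGBP, 3 and 3 in siBRD8 and 1 and 4 in siTIP60. In siMRG15 the number lower at an unadjusted p under 0.05 was 0, and edgeR and DESeq2 on the recovered reads called 0 and 0 lower. Of all genes 33.5% were higher and 35.8% lower in siMRG15. EYA2, a cofactor of SIX4 and its relatives, rose in siMRG15 by 1.47 ± 0.08 (13.5 CPM, against 4.24 in siLuc), where SIX4 fell, and EYA1 fell in siTIP60 by 1.33 ± 0.09 (2.38 CPM, against 7.49 in siLuc). ZFPM1, which binds GATA factors, rose in siMRG15 by 0.84, and ISL2, a LIM homeodomain gene, rose in siTIP60 by 0.82.

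ETV1, of the PEA3 group of ETS factors, was at 13.5 and 14.6 CPM in siMRG15, 4.16 and 4.098 in siMRGX, 6.93 and 7.51 in siMRGBP, 3.62 and 4.54 in siBRD8 and 5.47 and 5.701 in siTIP60 libraries, against 7.29 and 7.95 in siLuc libraries. It rose by 0.81 ± 0.09 in siMRG15 (adjusted p = 7.1e-06) and fell by 0.75 in siMRGX, 0.77 in siBRD8 and 0.39 in siTIP60, and siMRG15 exceeded siBRD8 by 1.57 (adjusted p = 1.8e-08). ETV5, its relative, rose by 0.62 in siMRGBP and fell by 0.59 in siBRD8. Of 30 listed FGF-ERK feedback genes and other ETS factors 14 were in the table, with 2 higher and 7 lower in siMRG15, 4 and 6 in siMRGX (4 and 4 after either rescaling), 5 and 7 in siMRGBP, 5 and 3 in siBRD8 and 7 and 4 in siTIP60. With TMM the list's counts were 2 and 8 in siMRG15 and 5 and 8 in siMRGBP, and after either rescaling 7 and 5 in siTIP60. ETS1 fell in siMRG15 by 1.02 ± 0.06, DUSP5, an ERK phosphatase, rose in siMRGX by 1.25 ± 0.08, ELK4 fell there by 0.82 ± 0.06, and ELF4 fell in siTIP60 by 1.04 ± 0.06.

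HES7, the oscillating repressor of the somite clock, was at 0.9501 and 0.853 CPM in siMRG15, 0.746 and 0.783 in siMRGX, 2.602 and 3.103 in siMRGBP, 2.002 and 2.12 in siBRD8 and 1.57 and 1.48 in siTIP60 libraries, against 0.859 and 0.9102 in siLuc libraries. It rose by 1.03 ± 0.09 in siMRGBP (adjusted p = 5.5e-07), 0.70 in siBRD8 and 0.42 in siTIP60, and differed by 0.01 in siMRG15 and -0.09 in siMRGX, which did not pass. Of 32 listed Notch pathway genes and HES relatives 17 were in the table, with 5 higher and 7 lower in siMRG15, 3 and 9 in siMRGX (3 and 7 after either rescaling), 2 and 9 in siMRGBP, 6 and 7 in siBRD8 and 6 and 7 in siTIP60. The receptor gene NOTCH3 fell in siMRGX by 2.32 ± 0.10 (26.6 CPM, against 137 in siLuc), and the coactivator gene MAML2 fell there by 1.93 ± 0.06. ADAM10, the protease that cuts Notch, fell in siMRG15 by 1.66 ± 0.07, and TLE4, a corepressor that HES proteins recruit, rose in siTIP60 by 2.71 ± 0.09 (7.88 CPM, against 0.359 in siLuc).

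Set against each other, the 5 knockdowns differed in 55 to 66 of the 85 members. Between siMRG15 and the others 61 members passed against siMRGX (all genes 74.5%), 64 against siMRGBP (76.0%), 65 against siBRD8 (67.9%) and 66 against siTIP60 (82.2%). In each of these 4 the members were more often higher than lower in siMRG15: 44 and 17 against siMRGX (all genes 40.8% and 33.6%), 44 and 20 against siMRGBP (39.2% and 36.8%), 43 and 22 against siBRD8 (32.8% and 35.2%) and 40 and 26 against siTIP60 (40.6% and 41.5%). After rescaling by median-of-ratios or TMM the split against siMRGX was 44 and 23 or 43 and 24. Among the 43 members with a mean of at least 5 CPM the 4 splits were 23 and 15, 23 and 14, 21 and 16, and 24 and 13. For these too the shares of all genes under the filter are not given here. The 4 comparisons share the siMRG15 libraries. Of the remaining pairs, 55 members passed between siMRGX and siMRGBP (all genes 71.1%), 57 between siMRGX and siBRD8 (64.2%), 66 between siMRGX and siTIP60 (83.0%), 55 between siMRGBP and siBRD8 (61.9%), 56 between siMRGBP and siTIP60 (74.4%) and 62 between siBRD8 and siTIP60 (76.0%).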

How the data were processed

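The members and gene lists were chosen with earlier results of these data known. Poly(A) RNA of U2OS cells was measured in 12 libraries, 6 groups of 2, grouped by the siRNA in the labels. The submitters' processing notes name minimap2 2.17-r941, featureCounts, Subread 2.0.0, Bowtie2 2.1.6, MACS2 2.0.10 and build hg19, with no role or order. Neither the use of strand in counting nor the rule that selected the genes is stated in those sources. The deposited values are CPM (counts scaled to library size) per gene and library for genes the authors chose as differentially expressed, 8813 rows, of which 5 repeated rows were removed. All 85 member names matched current symbols. A deposited table of transcripts holds marks of 0 or 1 (unit other), whose meaning is not stated.

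In every library 100% of CPM values were whole multiples of 1 read (tolerance 0.01 reads), giving effective library sizes of 57255783 to 110402095 reads. For siBRD8 replicate 1 and both siTIP60 libraries this rests on differences of neighbouring values. The main test was limma 3.58.1 (R 4.3.3, intensity trend) on log2(CPM + 1), with 6 group means over 12 libraries, 6 residual degrees of freedom, 2-sided p-values adjusted by Benjamini-Hochberg over 8808 genes in each of 15 comparisons, threshold 0.05 and no filter on low values. The pseudocount understates changes of low genes. The limma fit was run on simulated counts in which few genes changed and all genes had a single set dispersion. These data differ in both, so that run does not vouch for the calls here. Alternatives were pseudocounts of 0.5 and 5, means of at least 1 or 5 CPM, TMM and median-of-ratios factors, a replicate block, the 2 groups alone, edgeR 4.0.16 and DESeq2 1.42.0 on the recovered reads, and each library left out, where the lone library of its group is assumed to vary like the other groups.

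Members given with values in each library were KLF2, the largest change of each family, the 4 largest rises and 4 largest falls of each knockdown, members passing one way in all 5, and the 8 with the largest difference between knockdowns where they passed in opposite directions. From each of 7 lists the 4 genes with the smallest adjusted p were named, with partners of members. A result of 1 partner gene is not reported here. Other genes were named after their values were seen. Promoters came from RefSeq for GRCh38.p14.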

Additional observations from a re-analysis of the deposited data

How the results depend on the processing

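The number of members past the threshold stayed within 1.5 times of its main value in all 15 comparisons under every alternative except the filter to a mean of at least 5 CPM, which leaves 43 members by construction. The shares of all genes under that filter are not given here, so its counts are not read as a trait of the members. Under it 34 members passed in siMRG15, 33 in siMRGX, 33 in siMRGBP, 30 in siBRD8 and 28 in siTIP60 against siLuc. Between knockdowns 38 passed for siMRG15 against siMRGX, 37 against siMRGBP, 37 against siBRD8 and 37 against siTIP60, then 33 for siMRGX against siMRGBP, 33 against siBRD8 and 39 against siTIP60, 33 for siMRGBP against siBRD8 and 33 against siTIP60, and 35 for siBRD8 against siTIP60. Of 425 changes against siLuc, 285 passed, and 218 of these passed under every setting that gave a value. Leaving out some library ended 65 calls, and fitting the 2 groups alone ended 39. Rescaling turned the sign of 11 changes against siLuc, from -0.17 to 0.03 in the full fit, and 0 of these had passed there. Of them KLF11 in siMRGX passed after rescaling, at 0.14 with median-of-ratios factors and 0.16 with TMM. Leaving out a library turned the sign of several changes, not all listed here. Among them were FOXD1 in siMRG15, -0.32 to 0.39 over the left-out libraries, and FOXN3 in siMRGBP, -0.15 to 0.15. Neither of these passed in the full fit. The deviations of same-numbered libraries correlated between groups by -0.47 to 0.18. Such correlations cannot show whether same-numbered libraries were handled together. With the replicate block 60, 56, 56, 51 and 55 members passed in siMRG15, siMRGX, siMRGBP, siBRD8 and siTIP60. Levels under 1 CPM rest on the fewest reads, and counting error limits them. In 15 members the mean over the 12 libraries was under 1 CPM. Others were under it in some groups only, such as LHX5 in siLuc (0.70) and PAX2 in siMRGX (0.59).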

Other observations

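Of 66 listed other developmental transcription factors 20 were in the table. In siMRG15 10 were higher and 5 lower, in siMRGX 2 and 13 (5 and 10 with TMM), in siMRGBP 3 and 12, in siBRD8 7 and 5 and in siTIP60 3 and 12. With median-of-ratios the counts were 4 and 11 in siMRGX, 5 and 12 in siMRGBP, 6 and 5 in siBRD8 and 2 and 12 in siTIP60. Of all genes 33.5% were higher and 35.8% lower in siMRG15, 28.2% and 40.0% in siMRGX, and 32.1% and 32.9% in siMRGBP. In siBRD8 these shares were 28.3% and 25.9%, and in siTIP60 41.1% and 37.7%. ID3 and ID1, inhibitors of basic helix-loop-helix factors and targets of BMP signalling, fell in siTIP60 by 2.13 ± 0.08 (9.49 CPM, against 45.1 in siLuc) and 1.68 ± 0.08 (22.0 CPM, against 73.0 in siLuc). GLI1, the hedgehog effector, fell there by 1.90 ± 0.11 (4.72 CPM, against 20.4 in siLuc), and RUNX2, the master factor of osteoblasts, rose there by 1.41 ± 0.06 (121 CPM, against 44.9 in siLuc). The median change of the list in siTIP60 was -0.46, against 0.05 over all genes.

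The authors' deposited table of transcripts held 112 transcripts of 65 members, each marked or not as up or down in a knockdown. In the authors' deposited table, of these, 12 were marked up and 13 down in siMRG15, 7 and 34 in siMRGX, 16 and 16 in siMRGBP, 2 and 4 in siBRD8 and 12 and 13 in siTIP60. For all 25895 transcripts of the authors' deposited table these were 1889 and 3359 in siMRG15, 2122 and 3652 in siMRGX, 2586 and 1510 in siMRGBP, 1396 and 1318 in siBRD8 and 5203 and 4642 in siTIP60. Every KLF2 transcript was marked up in siMRGBP and down in siMRG15 in the authors' deposited table, but only a part of them was marked up in siTIP60. A FOXM1 transcript was marked down in all 5 knockdowns, while some other FOXM1 transcripts were marked in none.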
